A study of Mus musculus with 8 samples.

Results

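The haemoglobin genes Hba-a1, Hba-a2, Hbb-bs and Hbb-bt and the erythroid haem enzyme gene Alas2 are described here in sorted cells of the mouse central amygdala. They are 5 of the 20692 genes in the deposited tables, and they were chosen by name, with earlier results of these data known. For this reason their levels are given without a test between groups. Estimated counts (reads) and TPM (a level scaled to transcript length and to a fixed total per library) were summed over all targets of a gene. All 5 genes had reads in at least 1 library.

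The study compared cells that express protein kinase C delta (PKCd) with cells that express somatostatin (SST), in 4 libraries each. PKCd mice carried PKC delta-type::Cre and SST mice carried SST::Cre, and both were crossed to Rosa::loxP-STOP-loxP-td-Tomato, in which Cre switches on a red fluorescent protein. About 1000 td-Tomato-positive cells were sorted for each library from papain-dissociated punches of both sides of the central amygdala of 1 male mouse, and no group received a treatment named in the labels. PKCd replicates 1 and 2 came from mice of 9 weeks and replicates 3 and 4 from mice of 18 weeks, while SST replicates 1 and 2 came from mice of 8 weeks and replicates 3 and 4 from mice of 20 weeks. The reporter marks every cell in which Cre was active at any time up to the sort. Spread between libraries includes the spread between mice, sorts and amplifications.

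Adult haemoglobin is built from equal numbers of alpha and beta globin chains, each of which holds a haem group, and it is made in maturing red cells. Mice of most laboratory strains have a pair of adjacent alpha genes and a pair of adjacent adult beta genes. In the reference genome the copies within a pair are nearly identical in coding sequence. Alas2 encodes the erythroid form of 5-aminolevulinate synthase, which begins haem synthesis in red cell precursors, and Alas1 encodes the form used in other cells. Circulating red cells of mammals have no nucleus, but young ones still hold globin RNA. Globin RNA has also been described at low levels in some brain cells.

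The alpha copies share nearly all of their coding sequence, and the stretch around the single differing base is shown because it is the part by which coding reads could be assigned. Hba-a1 (gene ID 15122) lies on chromosome 11 at 32283672 to 32284486 and Hba-a2 (gene ID 110257) at 32296492 to 32297310 (GRCm38.p6, plus strand). Over the 429 bases of coding sequence in GENCODE there was 1 differing base, C381T, counted from the first base of the start codon with the Hba-a1 base first, an identity of 99.8%. Of 399 words of 31 bases in Hba-a1, 368 (92.2%) also occurred in Hba-a2. The windows below cover coding bases 351 to 411, and the capital marks the differing base (GRCm38, plus strand, Hba-a1 at chr11:32284313-32284373 and Hba-a2 at chr11:32297130-32297190).
Hba-a1: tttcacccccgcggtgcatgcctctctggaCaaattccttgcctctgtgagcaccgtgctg
Hba-a2: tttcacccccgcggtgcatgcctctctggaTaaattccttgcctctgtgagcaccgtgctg

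The same held for the beta genes. Hbb-bs (gene ID 100503605) lies on chromosome 7 at 103826523 to 103827928 and Hbb-bt (gene ID 101488143) at 103812524 to 103813923 (GRCm38.p6, minus strand). Their 444 coding bases differed at 1 base, C417T with the Hbb-bs base first, and 386 of 414 words of 31 bases (93.2%) were shared. The windows cover coding bases 387 to 444, the last of which closes the stop codon (GRCm38, minus strand, Hbb-bs at chr7:103826665-103826722 and Hbb-bt at chr7:103812656-103812713).
Hbb-bs: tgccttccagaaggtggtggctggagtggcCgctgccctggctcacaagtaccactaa
Hbb-bt: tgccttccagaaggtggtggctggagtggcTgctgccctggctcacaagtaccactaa

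The deposited target list held further copies of both. Hba-a1 and Hba-a2 each had a repeated target under the same RefSeq accession, which makes 4 alpha targets. Adult beta globin also had 4 targets, because Hbb-b1 and Hbb-b2, the pair of another mouse haplotype, were listed beside Hbb-bs and Hbb-bt. The sequences of Hbb-b1 and Hbb-b2 were not compared here. The division of reads among such copies was made by the authors' counting tool and is uncertain. Sums over the copies are therefore given first, with adult beta globin as the sum of all 4 symbols unless stated otherwise.

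Promoters are shown because alpha and beta globin genes are read out together in red cell precursors, so the members can be compared by the letters in front of their starts. The 120 bases before each RefSeq start were searched on both strands. The TATA box was taken as TATAA, which marks many tissue-specific starts. The CCAAT box was taken by its 5 letters, as was the CACCC box, which is bound by Klf1. The GATA motif was taken as GATAA, the core bound by GATA factors. Matches are in capitals, and overlapping matches are merged. The windows are from the RefSeq promoter table of GRCm38.p6: Hba-a1 at chr11:32283552-32283671 (plus), Hba-a2 at chr11:32296372-32296491 (plus), Hbb-bs at chr7:103827929-103828048 (minus), Hbb-bt at chr7:103813924-103814043 (minus) and Alas2 at chrX:150547297-150547416 (plus).
Hba-a1: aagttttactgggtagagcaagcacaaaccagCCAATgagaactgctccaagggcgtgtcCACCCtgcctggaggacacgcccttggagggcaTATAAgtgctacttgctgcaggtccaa
Hba-a2: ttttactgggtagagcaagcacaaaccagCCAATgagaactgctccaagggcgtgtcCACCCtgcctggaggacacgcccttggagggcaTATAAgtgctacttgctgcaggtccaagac
Hbb-bs: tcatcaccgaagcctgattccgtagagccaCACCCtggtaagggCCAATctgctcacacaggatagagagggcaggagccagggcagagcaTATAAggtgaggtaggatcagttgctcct
Hbb-bt: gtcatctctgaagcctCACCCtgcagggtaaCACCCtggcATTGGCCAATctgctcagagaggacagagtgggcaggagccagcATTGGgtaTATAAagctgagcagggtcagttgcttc
Alas2: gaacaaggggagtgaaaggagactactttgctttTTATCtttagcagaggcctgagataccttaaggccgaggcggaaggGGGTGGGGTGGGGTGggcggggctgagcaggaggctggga

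The alpha promoters shared an unbroken run of 117 bases, while the longest run shared by Hbb-bs and Hbb-bt was 14 bases. All 4 globin windows held the TATA box, the CCAAT box and the CACCC box, and none held the GATA motif. Alas2 (gene ID 11656, chromosome X, 150547417 to 150570622) held the GATA motif once and the CACCC box 3 times, all on the reverse strand. Among 32851 windows of the same length in the table, the TATA box was in 11.9%, the CCAAT box in 21.3%, the CACCC box in 31.7% and the GATA motif in 10.5%, on either strand. A match is a description of the letters only.

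Totals ranged from 10316149 to 18242496 reads in the younger libraries (8 to 9 weeks) and from 964361 to 2522749 in the older ones (18 to 20 weeks). The file names carry 1 sequencing run code for all younger and another for all older libraries, so age class, depth and run cannot be told apart. Prkcd, the gene whose promoter drove the PKCd sort, stood at 106.5 to 225.7 TPM in PKCd and 0 to 30.2 TPM in the SST libraries. Sst stood at 116.3 to 296.2 TPM in the SST libraries, and PKCd replicate 2 lay within that range at 222.7 TPM, against 0.209 to 13.7 TPM in the other 3 PKCd libraries. Transcripts of inhibitory neurons were low. Gad1 and Gad2, which make GABA, ranged from 1.71 to 106.5 and from 0.208 to 80.0 TPM, and Slc32a1, the vesicular GABA transporter, had no read in PKCd replicates 3 and 4 and SST replicates 2 and 4. The 12 neuronal markers together summed to 126.1 to 610.8 TPM in PKCd and 141.5 to 567.7 TPM in the SST libraries, and the 12 microglial markers to 29999 to 48973 and 463.4 to 5916 TPM. In these bulk libraries fewer cells of a type and less RNA per cell cannot be told apart.

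Alpha globin was high in 5 libraries and near 0 in 3. In PKCd libraries the sum of Hba-a1 and Hba-a2 was 412.7, 0.748, 2467 and 7882 TPM in replicates 1 to 4, which rest on 1792, 2, 515 and 2603 reads. In SST libraries it was 0.494, 0.908, 437.6 and 440.6 TPM, from 2, 3, 150 and 253 reads. The 4 older libraries and PKCd replicate 1 made up the high set, and the other 3 younger libraries held at most 3 alpha reads each. All older libraries lay above all younger ones, PKCd replicate 1 (412.7 TPM) just below the lowest older library (437.6 TPM). The populations overlapped.

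**Figure D1:**
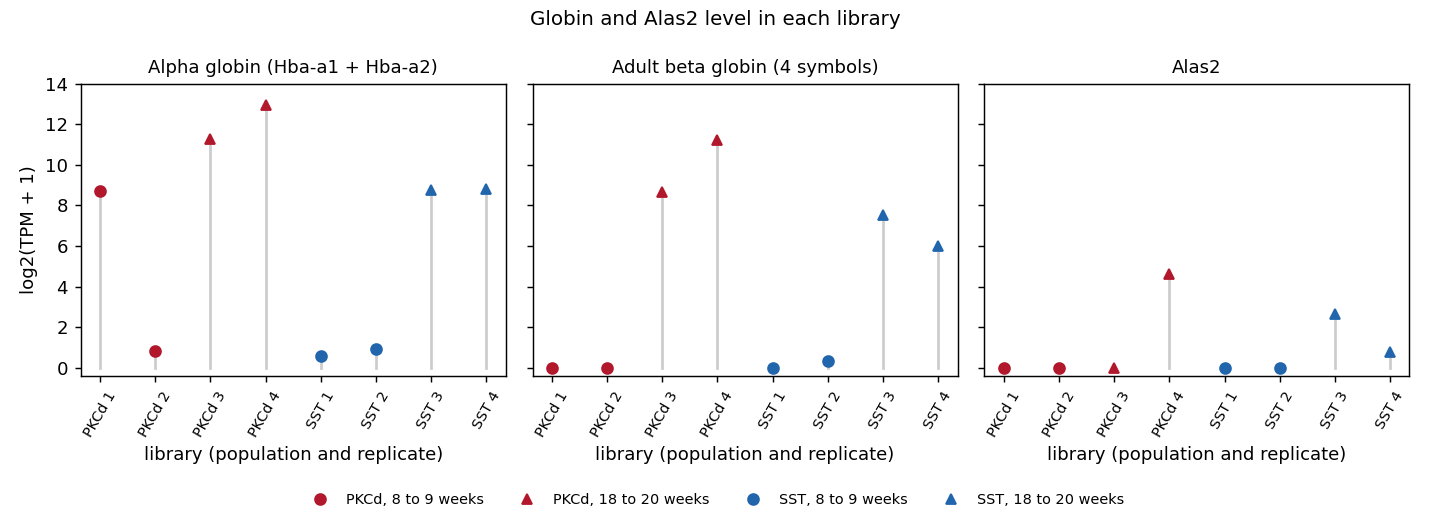
Level of alpha globin (left), adult beta globin (middle) and Alas2 (right) on the log2(TPM + 1) scale in each of the 8 libraries, with PKCd in red, SST in blue, circles for 8 to 9 weeks and triangles for 18 to 20 weeks. PKCd replicate 1 stands with the older libraries for alpha globin and at 0 for beta globin and Alas2.

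The mean alpha level was 2691 ± 3625 TPM in PKCd and 219.9 ± 253.1 TPM in the SST libraries (± SD, n = 4 libraries each), a ratio of means of 12.2 (4.37 without PKCd replicate 4 and 18.4 without SST replicate 4). By age class it was 2807 ± 3516 TPM in older and 103.7 ± 206 TPM in younger libraries (± SD, n = 4 libraries each), a ratio of 27.1. This became 10.8 without PKCd replicate 4 and 3917 without PKCd replicate 1, where the younger mean rests on 7 reads in all. Among older libraries alone the ratio of PKCd to SST was 11.8 (5.62 without PKCd replicate 4 and 17.95 without PKCd replicate 3), with both PKCd libraries (2467 and 7882 TPM) above both SST libraries (437.6 and 440.6 TPM). In younger libraries PKCd replicate 1 (412.7 TPM) stood far from PKCd replicate 2 (0.748 TPM), which lay between the SST libraries. The SD of each population exceeded its mean.

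Scaling without transcript length gave another order among the middle libraries. In CPM, which scales reads to the library total alone, alpha globin was 98.2 in PKCd replicate 1, 96.1 in SST replicate 3 and 100.3 in SST replicate 4. On that scale PKCd replicate 1 lay above 1 of the 4 older libraries, so the age classes overlapped. The 2 libraries with the highest values, PKCd replicate 4 (1673 CPM) and PKCd replicate 3 (534 CPM), were the same on both scales.

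Adult beta globin was found in older libraries, with 1 read elsewhere. The 4 adult symbols together gave 397.1 and 2385 TPM in PKCd replicates 3 and 4 (101 and 944 reads). They gave 186.2 and 63.9 TPM in SST replicates 3 and 4 (76 and 44 reads). PKCd replicates 1 and 2 and SST replicate 1 had 0 reads, and SST replicate 2 had 1 read (0.253 TPM). The age classes did not overlap, and the populations overlapped, with means of 695.6 ± 1142 TPM in PKCd and 62.6 ± 87.7 TPM in the SST libraries (± SD, n = 4 libraries each), a ratio of 11.1 (2.12 without PKCd replicate 4 and 32.5 without SST replicate 3).

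PKCd replicate 1 stood apart in its chains. It is the deepest library, at 18242496 reads, and it had 1792 alpha reads and 0 adult beta reads. A count of 0 allows up to 3 reads, which is 0.577 TPM in that library, so alpha globin was at least 715 times beta globin. The alpha share of its adult globin reads was 100%, with an exact (Clopper-Pearson) 95% interval of 99.8 to 100%. Intervals and limits of this kind hold for counting error alone, because reads amplified without molecular identifiers are not independent molecules.

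In the 4 older libraries, which each held at least 40 adult beta reads, alpha and beta globin were both present at ratios between 2.35 and 6.89 in TPM. The ratio was 6.21 in PKCd replicate 3, 3.30 in PKCd replicate 4, 2.35 in SST replicate 3 and 6.89 in SST replicate 4. As shares of adult globin reads, alpha made up 83.6% (exact 95% interval 80.4 to 86.4%) and 73.4% (71.9 to 74.8%) in the PKCd libraries. It made up 66.4% (59.8 to 72.5%) and 85.2% (80.6 to 89.0%) in the SST libraries. PKCd replicate 3 and SST replicate 4 had overlapping intervals, as did PKCd replicate 4 and SST replicate 3. Each library of the first pair lay above both of the second beyond counting error, so the ratio followed neither population. The share in PKCd replicate 1 lay above all 4.

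The ratio depended on which beta symbols were counted. With Hbb-bs and Hbb-bt alone, beta globin was 397.1, 566 and 47.0 TPM in PKCd replicates 3 and 4 and SST replicate 3 and 10.7 TPM in SST replicate 4. The alpha to beta ratio was then 6.21, 13.9, 9.32 and 41.1. The last value rests on 7 beta reads. Taken from the mean levels of each population, the ratio was 11.2 in PKCd and 15.3 in SST libraries with those symbols and 3.87 and 3.51 with all 4, so the order of the populations turned.

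The single alpha copies did not keep a fixed share of their sum. Hba-a1, the first alpha gene, stood at 183.4, 0.748, 1772 and 3878 TPM in PKCd replicates 1 to 4 and at 0.494, 0.908, 173.5 and 440.6 TPM in SST replicates 1 to 4. Hba-a2, its neighbour, stood at 229.4, 0, 695.3 and 4004 TPM in the PKCd and at 0, 0, 264.1 and 0 TPM in the SST libraries. In both genes the PKCd and SST ranges overlapped. Hba-a1 received 44.2% of the alpha reads in PKCd replicate 1, 71.6% and 48.9% in PKCd replicates 3 and 4, and 39.4% in SST replicate 3. In SST replicate 4 it received all 253 of them, although the alpha sums of SST replicates 3 and 4 lay close together (437.6 and 440.6 TPM).

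**Figure D2:**
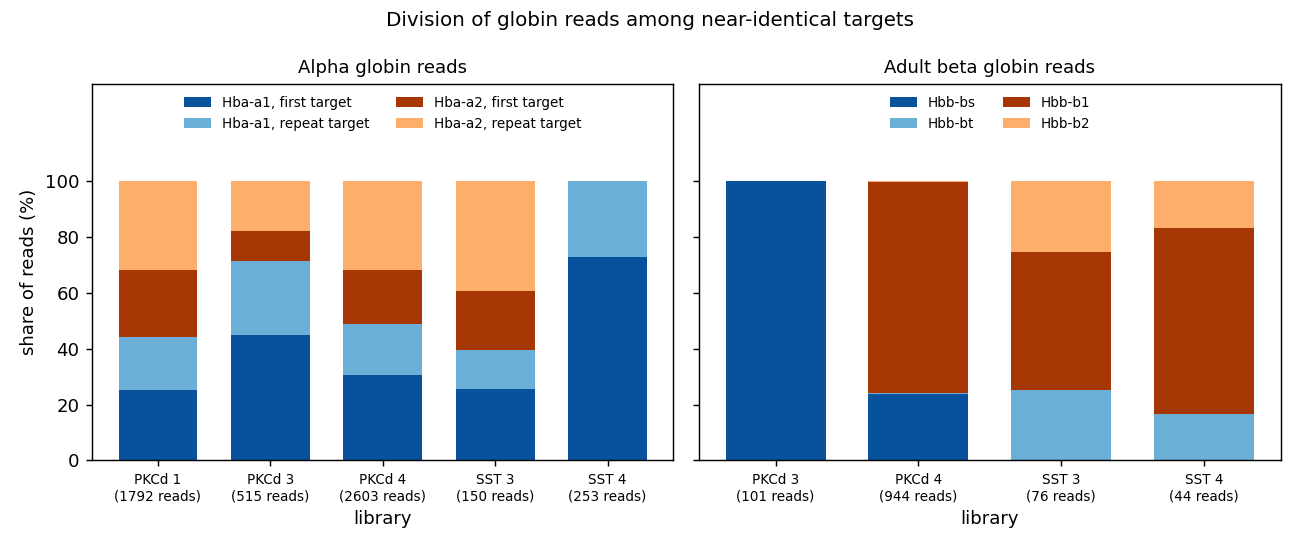
Share of alpha globin reads (left, 4 targets) and of adult beta globin reads (right, 4 symbols) that the authors' tool gave to each target, in percent, for libraries with over 100 alpha or at least 40 beta reads. No 2 libraries share a division of beta reads, and SST replicate 4 has all its alpha reads on the Hba-a1 targets.

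Beta reads went to different symbols in different libraries. Hbb-bs, one of the adult beta genes of the reference strain, took all 101 beta reads of PKCd replicate 3 (397.1 TPM) and 23.8% of those of PKCd replicate 4 (559.3 TPM), and it was at 0 TPM in all 4 SST libraries. Hbb-bt, the other one, had 0 TPM in PKCd replicates 1 to 3, 6.71 TPM in PKCd replicate 4, 47.0 TPM in SST replicate 3 and 10.7 TPM in SST replicate 4. Hbb-b1 took 75.7% of the beta reads of PKCd replicate 4 (1813 TPM), 49.6% in SST replicate 3 and 66.5% in SST replicate 4. Hbb-b2 had the same values as Hbb-bt in every library. The labels do not name the beta globin haplotype of the mice.

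Alas2 was seen in 3 libraries. It had 37 reads (23.4 TPM) in PKCd replicate 4, 9 reads (5.35 TPM) in SST replicate 3 and 2 reads (0.723 TPM) in SST replicate 4. PKCd replicates 1 to 3 and SST replicates 1 and 2 had 0 reads. All 3 libraries were older ones, and the older library without a read, PKCd replicate 3, was the shallowest of all, where 3 reads would be worth 2.99 TPM. In PKCd replicate 1, with its 1792 alpha reads, 3 reads of Alas2 would be worth 0.144 TPM. The populations overlapped, at 5.84 ± 11.7 TPM and 1.52 ± 2.58 TPM (± SD, n = 4 libraries each).

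Only Hba-a1 and Hba-a2 had enough reads for the fit over all genes, an edgeR quasi-likelihood model with terms for population and age class. Their fitted log2 differences are given as a description. PKCd minus SST, the value was 4.80 ± 1.36 for Hba-a1 and 6.26 ± 2.17 for Hba-a2, and for the sum of alpha globin, Hbb-bs and Hbb-bt it was 5.56 ± 1.54 (SE). Older minus younger, the sum differed by 6.55 ± 1.58. Without PKCd replicate 1, the younger library with many alpha reads, the 2 values for the sum became 2.81 ± 0.84 and 10.27 ± 1.07. The second value rests on younger libraries with 2, 2 and 3 reads of the sum, so its size is uncertain. Among older libraries alone the difference between populations was 3.64 ± 0.65. In the same fit 0.282% of 11328 genes passed an adjusted p of 0.05 towards higher and 0% towards lower values in PKCd libraries (32 and 0 genes, with 756 at an unadjusted p under 0.05, and 454 in all by DESeq2). For age class 0.0265% passed in each direction. The median over all tested genes was -0.08 for population and -0.16 for age class.

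Other genes of red cells were tested where reads allowed. The 7 related lists name 98 genes (other globins, haem synthesis, iron handling, haem breakdown, red cell membrane, red cell enzymes and erythroid regulators), of which 95 are in the files and 63 were tested. By edgeR 0 of the 63 passed an adjusted p of 0.05 in either direction in either comparison. At an unadjusted p under 0.05 there were 6 for population and 5 for age class, and DESeq2 called 3 and 5, limma-voom 0 and 0 and limma on log2(TPM + 1) 2 and 0. The lowest adjusted p was 0.0800 for population, for Lmo2, and 0.141 for age class, for Cpox. Libraries of the populations did not overlap for 6 of the 63 genes higher in PKCd (9.52%, against 3.88% of all tested genes) and for 1 lower (1.59%, against 3.05%). For age class the counts were 2 higher (3.17%, against 4.15%) and 2 lower (3.17%, against 3.53%). The 6 genes higher in PKCd without overlap were Ermap, Ftl1, Lmo2, Lrp1, Slc25a37 and Slco2b1. The summed microglial markers did not overlap either, at 29999 to 48973 TPM in PKCd and 463.4 to 5916 TPM in the SST libraries. Their part in the differences of these 6 genes was not tested.

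Among the other globins, Ngb and Cygb, the globins of neurons and of many other cells, were tested, with a list median of 0.71 for population and -0.36 for age class. Ngb stood at 32.3, 179.9, 28.1 and 21.7 TPM in the PKCd and 19.0 to 29.1 TPM in the SST libraries. It was highest in PKCd replicate 2, which held 2 alpha globin reads, and its relation to the globin levels was not tested. Further globin genes, some of them embryonic, were at or near 0. Hba-x, Hbb-bh1 and Hbq1a had no read, Hbb-y had 2 reads in PKCd replicate 4, and Hbb-bh2 and Hbq1b had 3 each in SST replicate 4. Mb, the myoglobin of muscle, had no read.

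Haem synthesis genes had enough reads for the test in 12 of 12 cases, and 9 of the 12 were above 0 TPM in every library. Their summed level was 702.9 to 1026 TPM in PKCd and 794.4 to 1055 TPM in the SST libraries, and it did not overlap between older (909.9 to 1055 TPM) and younger libraries (702.9 to 882.4 TPM). The list median was -0.13 for population and 0.45 for age class. Alas1, the housekeeping synthase, stood at 47.9, 41.7, 136.2 and 184.8 TPM in the PKCd and 30.2, 27.7, 57.9 and 307.1 TPM in the SST libraries. All 4 older libraries lay above all younger ones, and the log2 difference by age was 2.02 ± 0.61 (SE) with an edgeR adjusted p of 0.361. Cpox, a later enzyme of the pathway, went the other way, at 40.4 to 90.1 TPM in younger and 5.10 to 15.1 TPM in older libraries (log2 difference -2.89 ± 0.63). Fech, which inserts the iron, ranged from 17.9 to 150.3 TPM, and Tmem14c and Slc25a39, transporters of the mitochondrial steps, from 109.9 to 314.1 and from 64.8 to 252.5 TPM. Each of these 3 overlapped in both comparisons.

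**Figure D3:**
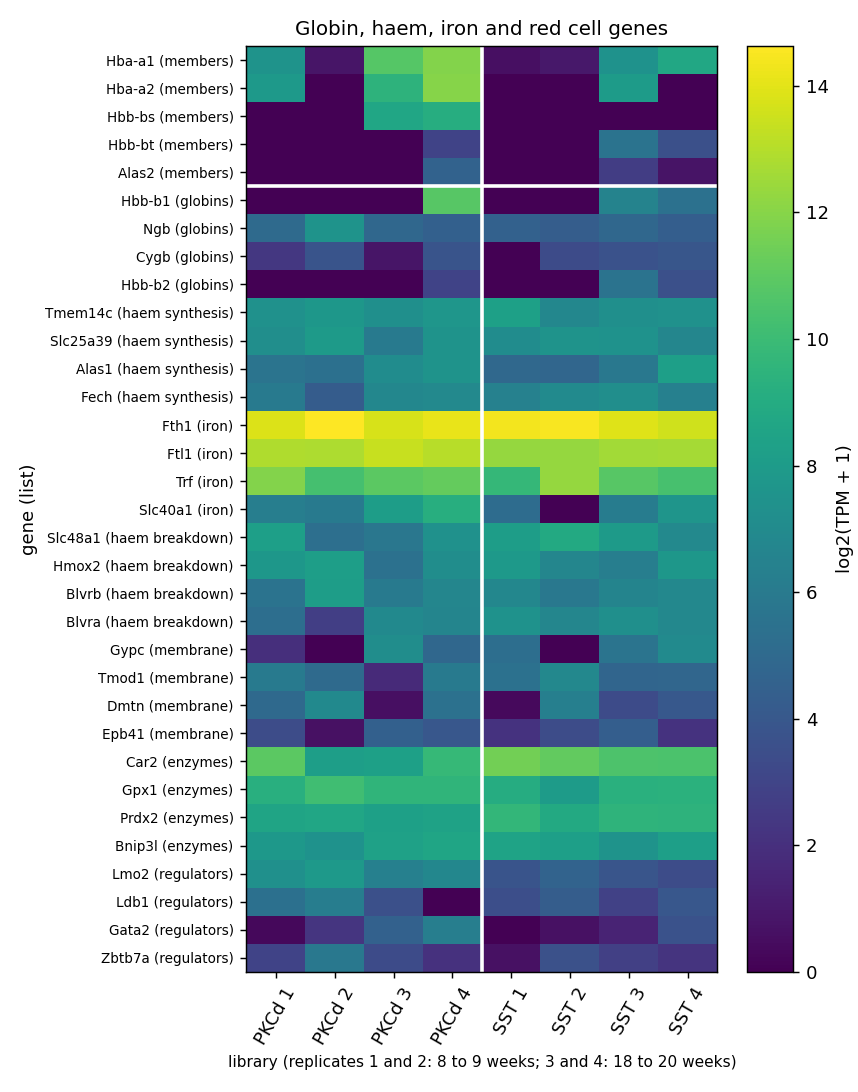
Heat map of log2(TPM + 1) for the 5 globin and erythroid genes (top) and for the up to 4 most abundant genes of each related list, by library, with PKCd left and SST right of the white line. The globin genes change between dark and bright across libraries, while the haem synthesis, ferritin and enzyme genes shown are present in all 8.

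Iron genes were the most abundant of the related lists, with 11 of 12 tested and medians of 0.24 for population and 0.07 for age class. Fth1, the ferritin heavy chain, ranged from 12085 to 25379 TPM. Ferritin genes have near-identical pseudogenes in the mouse genome, so their values are uncertain. Ftl1, the ferritin light chain, stood at 8496 ± 1536 TPM in PKCd and 5736 ± 661.9 TPM in the SST libraries (± SD, n = 4 libraries each). Its populations did not overlap, and the log2 difference was 0.57 ± 0.41 (SE) with an edgeR adjusted p of 0.880. Trf, which carries iron in plasma and is made by oligodendrocytes in brain, ranged from 842.6 to 5055 TPM. Slc40a1, the iron exporter, stood at 282.8 and 585.2 TPM in the older PKCd libraries and at 69.8 and 193.7 TPM in the older SST libraries. It was at 0.0343 to 75.6 TPM in younger libraries, so the age classes overlapped. Slc25a37, the importer that brings iron into mitochondria, stood at 8.02 to 34.1 TPM in PKCd and 0 to 1.33 TPM in the SST libraries, with a log2 difference of 6.22 ± 1.80 (SE) and an edgeR adjusted p of 0.305.

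Genes of haem breakdown and scavenging had medians of 0.28 and 0.38, with 9 of 11 tested. Slc48a1, a haem transporter, Hmox2, a haem oxygenase, and Blvra and Blvrb, the biliverdin reductases, overlapped between populations. Slco2b1, an organic anion transporter, stood at 110.2 to 251.1 TPM in PKCd and 0.339 to 27.8 TPM in the SST libraries (log2 difference 4.19 ± 0.88 SE, edgeR adjusted p 0.105). Lrp1, a receptor that takes up haem with its carrier, stood at 20.4 to 43.5 TPM and 3.41 to 19.2 TPM. Slco2b1 and Lrp1 did not overlap between populations, whereas the globin sums did.

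Several defining genes of the red cell were at or near 0. Klf1 and Gata1, the factors that drive globin transcription, and Trim58, a late erythroid gene, had no read in any library. Slc4a1, the anion exchanger band 3, had 3 reads, all in SST replicate 4, and Car1 and Kel had 1 read each, in the same library. PKCd replicate 4, with 3547 adult globin reads, had 0 reads of Slc4a1, Kel and Car1. Each of these counts of 0 allows up to 3 reads.

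Of 18 membrane genes 6 could be tested, with medians of 0.63 for population and -0.50 for age class. Gypc, a membrane glycoprotein that is not restricted to red cells, stood at 2.86, 0, 143.1 and 28.7 TPM in PKCd and 37.7, 0, 48.5 and 129 TPM in the SST libraries. Tmod1, Dmtn and Epb41, which bind the membrane skeleton, ranged from 2.37 to 112.2, from 0.275 to 121.6 and from 0.571 to 21.0 TPM. All 4 overlapped in both comparisons.

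Red cell enzymes that other cells also use had 15 of 18 genes tested and medians of -0.42 and -0.08. Car2, carbonic anhydrase 2, ranged from 289.6 to 2962 TPM, and Gpx1, glutathione peroxidase, from 262.9 to 1130 TPM, with overlap. Prdx2, a peroxiredoxin abundant in red cells, stood at 355.8 ± 34.6 TPM in PKCd and 681.3 ± 152.4 TPM in the SST libraries (± SD, n = 4 libraries each), without overlap. Its log2 difference was -0.98 ± 0.45 (SE), with an edgeR adjusted p of 0.758. Prdx2 was at 319.0 TPM or more in every library, and its relation to the globin levels was not tested. Bnip3l, which clears mitochondria from maturing red cells, ranged from 174.7 to 383.2 TPM.

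Erythroid regulators had 8 of 13 genes tested and medians of 1.11 and -0.41. Lmo2, a bridging factor of blood and endothelial transcription complexes, stood at 163.2, 238.2, 81.3 and 108 TPM in the PKCd and 13.1, 24.3, 13.6 and 9.36 TPM in the SST libraries. All PKCd libraries lay above all SST libraries, with a log2 difference of 3.27 ± 0.64 (SE) and an edgeR adjusted p of 0.0800. Its highest value was in PKCd replicate 2, which held 2 alpha reads. A relation of Lmo2 to the globin levels was not tested. Gata2, a factor of blood precursors and endothelium, stood at 0.219, 3.85, 22.2 and 76.4 TPM in PKCd and 0, 0.573, 1.74 and 11.9 TPM in the SST libraries, and it overlapped in both comparisons. Ldb1 and Zbtb7a ranged from 0 to 73.1 and from 0.565 to 57.7 TPM.

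Markers of other cell types moved with some of the globin values. The 12 endothelial markers, all tested and all with reads, summed to 286, 3414, 1691 and 4524 TPM in PKCd replicates 1 to 4 and to 214.4, 181.8, 1325 and 3442 TPM in SST replicates 1 to 4. All 4 older libraries, which held globin, had 1325 TPM or more. PKCd replicate 2 had 3414 TPM of endothelial markers with 2 alpha reads, and PKCd replicate 1 had 286 TPM with 1792. The list's median log2 difference was 3.26 for population and 2.59 for age class, and 0 of 12 passed in edgeR in either comparison (3 and 6 at an unadjusted p under 0.05, 4 and 6 by DESeq2 and none by limma-voom). Their part in the globin levels was not tested.

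**Figure D4:**
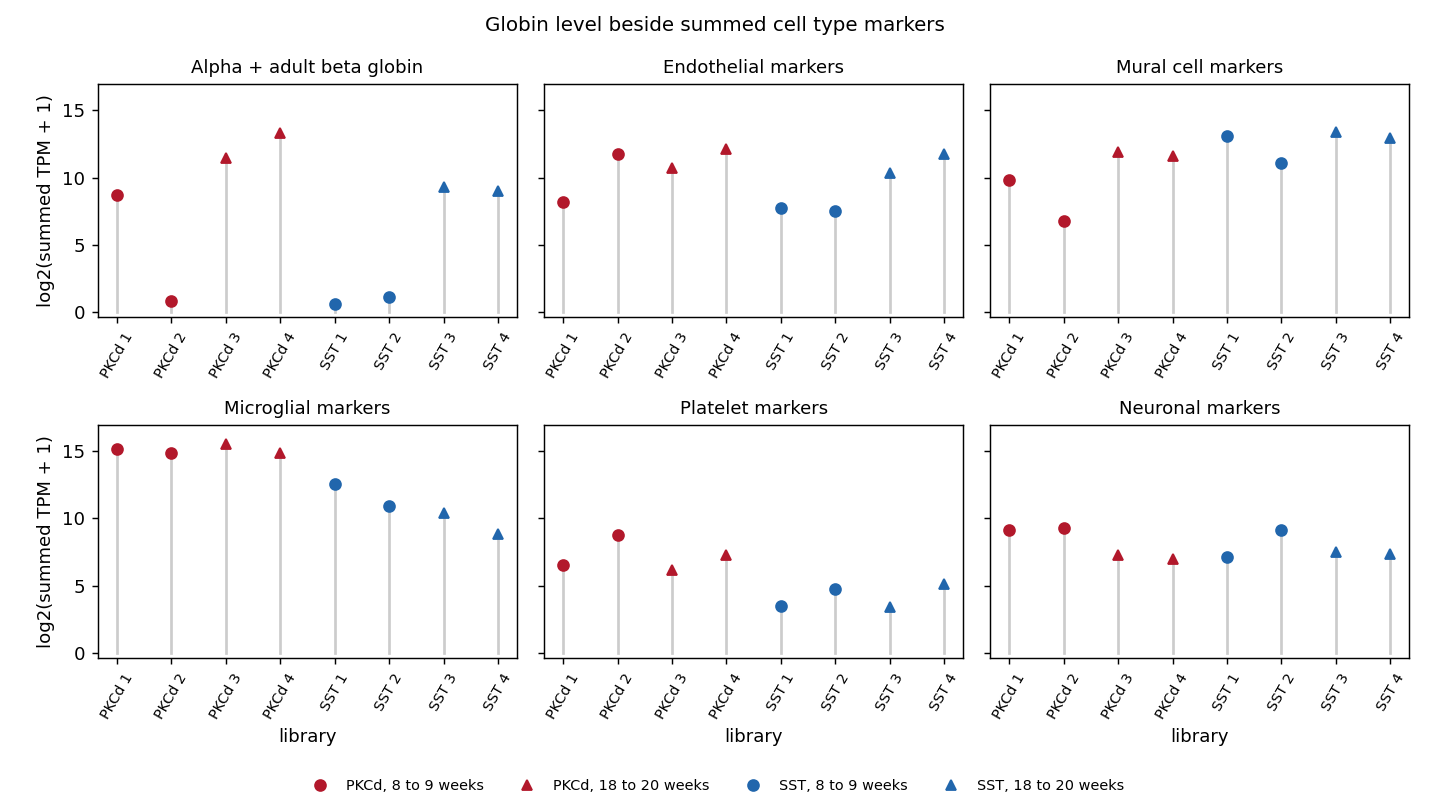
Summed level of alpha and all adult beta globin (upper left) and of 5 marker lists on the log2(summed TPM + 1) scale in each library, with PKCd in red, SST in blue, circles for 8 to 9 weeks and triangles for 18 to 20 weeks. PKCd replicates 1 and 2 have opposite positions for globin and endothelial markers, and microglial markers separate the populations where globin does not.

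The 10 mural cell markers, of pericytes and smooth muscle, summed to 899.7, 109.2, 3811 and 3080 TPM in PKCd and 8813, 2177, 10824 and 7870 TPM in the SST libraries. Both older PKCd libraries lay above both younger ones. Among SST libraries, replicate 1, with 2 alpha reads, lay between the older ones and held the second highest value of all. The part of these and of the platelet markers below in the globin levels was not tested. The 11 platelet markers summed to 69.0 to 440.6 TPM in PKCd and 9.67 to 33.7 TPM in the SST libraries without overlap, and 0 of 3 tested passed for population in edgeR (1 at an unadjusted p under 0.05 and 1 by DESeq2). Their highest sum was in PKCd replicate 2, where Pf4, a chemokine of platelets, gave 382.2 TPM (1105 reads). Gp1bb was also highest there, at 57.4 TPM, but Ppbp, Gp9 and Gp1ba had 0 reads. Ppbp had 126, 33 and 40 reads in PKCd replicates 1 and 4 and SST replicate 4, and at most 1 elsewhere. Gp9 had 401 reads in PKCd replicate 1 and at most 14 elsewhere. Gp1ba had reads in PKCd replicates 1 and 4 alone (54 and 21). Pf4 did not overlap between populations, whereas Ppbp, Gp9, Gp1bb and Gp1ba did. Pf4 was at 0 TPM in every SST library and gave 35.6 of the 69.0 TPM in PKCd replicate 3. Without Pf4 the list sums of the populations would overlap, so their separation rests on this gene. Treml1 had no read in any library.

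Markers of white blood cells were mostly low. Of 13 lymphocyte markers 0 could be tested and 6 had no read, among them Cd79a, Ms4a1 and Cd3g, and the list summed to 1.74 to 53.0 TPM in PKCd and 1.24 to 4.87 TPM in the SST libraries. Of 12 neutrophil markers, Elane, Ngp and Retnlg had no read, and the list summed to 96.4 to 142.2 and 19.2 to 170.7 TPM. Csf3r, the receptor of granulocyte colony-stimulating factor, was the neutrophil marker that passed, higher in PKCd libraries at 71.5 to 132.8 TPM against 1.38 to 3.55 TPM (log2 difference 5.71 ± 0.62 SE, edgeR adjusted p 0.00484). Microglia also express Csf3r, and 4 of 12 microglial markers were higher by the same test. The 8 blood monocyte markers summed to 107.8 to 1636 and 38.6 to 2341 TPM. The highest sum, in SST replicate 4, held 2267 TPM of Ly6c1 and 67.3 TPM of Ccr2, which was at most 1.04 TPM elsewhere. Ly6c2 was highest in SST replicate 3, at 43.9 TPM. The part of each of these lists in the globin levels was not tested.

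The genes whose pattern was most like that of globin were taken by Pearson correlation with log2(alpha + Hbb-bs + Hbb-bt TPM + 1) over the 8 libraries, among 11326 genes. Manba, a lysosomal mannosidase, had r = 0.995, followed by Triobp, an actin-binding protein (0.986), Exoc6, a subunit of the exocyst (0.986), Mcm7, of the replication helicase (0.985), and Lgals3bp, a secreted glycoprotein (0.977). Manba stood at 11.2, 0, 27.9 and 48.3 TPM in PKCd and 0.0256, 0, 19.5 and 13.9 TPM in the SST libraries, so it was high in the same 5 libraries. The values describe 8 libraries, of which the 4 older ones share a run and a low depth with high globin. By Spearman correlation 1 of the 5 was among the 5 most alike, and 301 genes lay at or above the lowest of the 5, and with a pseudocount of 0.1 in place of 1 it was 3 of 5.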

How the data were processed

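The deposited files list RefSeq targets with 2 lengths, an estimated count and a TPM value each. The authors obtained estimated counts from kallisto 0.43.0, per the submitters' processing notes, and the column names match that tool. BWA 0.7.12 and the mm10 build are also named there. The role of BWA, the index and its annotation release are not given in the sources used here. The deposited TPM keeps no depth, since it is scaled to length and to a fixed total.

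Of 30404 targets, 690 carried a suffix for a repeated accession, which was removed before the join. RefSeq (GRCm38.p6) named 30076 targets and GENCODE 151, while 177 kept their accession, which gave 20692 genes. Values were summed per gene, and an estimated count under 0.5 was listed as 0 TPM.

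Rounded estimated counts were fitted with edgeR 4.0.16 in R 4.3.3 (quasi-likelihood test, TMM, default filter by population, terms for population and age class), with Benjamini-Hochberg adjustment over the 11328 genes tested and a threshold of 0.05. Non-overlap was read from TPM. Alternatives used DESeq2 1.42.0 and limma 3.58.1. The fit was tested on simulated data. Total estimated counts were 964361 to 18242496 per library, and 1 read was worth 0.0548 to 1.04 CPM.

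The genes and lists were chosen with earlier results of these data known. From each related list the text names genes past the threshold and up to 4 with the highest mean TPM; the 5 genes most like globin are named by Pearson r. Cpox, Slc25a37, Slco2b1, Lrp1, the defining red cell genes and the single markers named were chosen after their values were seen. Values of a few list members are not reported here.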

Additional observations from a re-analysis of the deposited data

Results flagged for a closer look

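A library far from the others of its group of 4 was looked for by Dixon's gap test within each population. The search took the 5 globin and erythroid genes, the alpha and adult beta sums and the most abundant genes of each related list. Within each age class it took only those 5 genes, those sums, Hbb-b1 and Hbb-b2. The other related genes could therefore not be marked by age class, and Cpox, Slc25a37, Slco2b1 and Lrp1 were not searched. Of 88 groups searched, 17 were marked. For values with a normal spread, chance alone marks about 1 in 20 groups. The search used TPM without a log scale, and several groups had an SD above their mean, so the rate may be higher here. Sums were searched beside their parts, so the groups are not independent. The rate does not hold at all for 7 of the 17, in which the other 3 libraries were at 0 and any value above 0 is marked. These 7 are Hba-a2 among younger and among SST libraries, the adult beta sum among younger libraries, and Hbb-bt, Hbb-b1, Hbb-b2 and Alas2 among PKCd libraries. Within the 8 to 9 week class, PKCd replicate 1 stood apart for Hba-a1 (183.4 TPM), Hba-a2 (229.4 TPM) and their sum (412.7 TPM), and SST replicate 2 for the adult beta sum (0.253 TPM, which is 1 read against 0). PKCd replicate 4 stood apart for the adult beta sum (2385 TPM) and Hbb-b1 (1813 TPM), both within its population and within the 18 to 20 week class. Within PKCd it was also the one library above 0 for Hbb-bt and Hbb-b2 (6.71 TPM each) and Alas2 (23.4 TPM).

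Within SST libraries, replicate 3 stood apart for Hba-a2 (264.1 TPM) and Alas2 (5.35 TPM), and replicate 4 for Alas1 (307.1 TPM) and Gata2 (11.9 TPM). Within PKCd libraries, replicate 2 stood apart for Ngb (179.9 TPM) and Zbtb7a (57.7 TPM). Bnip3l had opposite differences by age class: PKCd minus SST mean TPM was -131.6 at 8 to 9 weeks and 113.9 at 18 to 20 weeks, with every library of a class on the same side. That difference between classes was not tested.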

How the results depend on the processing

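Both globin differences kept their direction under every alternative that gave a value; with 8 to 9 weeks alone the sum was removed by the filter. PKCd minus SST, the log2 difference of the sum ranged from 2.81 (without PKCd replicate 1) to 6.58 with 1 library left out. Older minus younger, it ranged from 5.78 to 10.27 (without PKCd replicate 1). That highest value rests on younger libraries with 2 to 3 reads of the sum each. Limma-voom, limma on log2(TPM + 1) and no age term gave 3.75, 3.67 and 3.72 between populations. With all adult beta symbols in the sum, an alternative chosen after the data were seen, the differences were 5.46 and 6.75. The alpha to beta ratio of means, 11.2 in PKCd libraries, was 3.87 with all adult beta symbols and 7.25 to 14.7 with 1 library left out; in SST libraries it was 9.35 to 41.3 (without SST replicate 3).

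With 1 library left out, also chosen after the data were seen, the ratio of mean alpha TPM ranged from 4.37 to 18.4 between populations, from 5.62 to 17.95 among older libraries and from 10.8 to 3917 between age classes, and that of adult beta TPM from 2.12 to 32.5.

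Genes past the threshold between populations (32) numbered 269 with no filter, 454 by DESeq2, 147 and 68 by limma on log2(TPM + 1) and log2(TPM + 0.1), 57 after thinning, 0 within either age class alone and 10 to 52 with 1 library left out. Between age classes (6) they numbered 2 with RLE scaling, 249 with no filter, 2 with the 10 CPM filter, 555 by DESeq2, 0 by limma-voom, 53 and 12 by limma on the 2 TPM scales, 12 after thinning and 0 to 2 with 1 library left out. In the 7 related lists at most 1 gene of a list passed in any alternative for population and at most 2 for age class.

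With the replicate number as a block, 24 genes passed between populations and the globin difference was 3.89. The numbers name different mice; same-numbered libraries had correlations of 0.0615 to 0.174 in their deviations, and 4 of 8 libraries correlated best with their own number. Depth limits genes with few reads, since 1 read was worth 1.04 CPM in the shallowest library.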
